A study of Rattus norvegicus with 2 samples.

Results

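The genes described here are 54 genes known from leukocytes and from the B lymphocyte and plasma cell lineage, read in AR42J cells. They were chosen by name, with their intensities on these arrays already known, in 4 classes: 20 pan-leukocyte genes, 18 B and plasma cell genes, 7 T and natural killer (NK) cell genes and 9 myeloid genes. Of the 54, 44 were matched to a target on the array, among 15566 named genes and 26419 targets in all. AR42J cells, a rat line labelled exocrine pancreas by the submitters, go back to an acinar tumour; TLC-S stands for taurolithocholic acid 3-sulfate, a bile acid that injures acinar cells. The TLC-S group was AR42J cells given 200 µM TLC-S for 20 min, and the control group was AR42J cells of the same culture conditions without the treatment. There was 1 one-colour Cy3 array in each group, so no p-value was computed, and each ratio compares these 2 arrays and not the conditions. In RNA of whole cultures, fewer cells of a type and less RNA per cell cannot be told apart.

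Leukocytes share a set of surface proteins and of regulators of the actin cytoskeleton that other cells lack or hold at low levels. B cells read antigen through a receptor made of immunoglobulin and the signalling chains Cd79a and Cd79b. On activation some become plasma cells, which secrete antibody and turn on the factors Irf4, Prdm1 and Xbp1. Acinar cells of the pancreas are secretory cells of another lineage, known for digestive enzymes and for the factors Ptf1a, Rbpjl and Bhlha15.

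An intensity is the authors' RMA value of a target, in arbitrary units. Random-sequence probes read 40.5 on the TLC-S array and 44.7 on the control array, and the median target read 91.3 and 94.5. An intensity of 100 was taken as the level limit, and 42.7% of all targets reached it on both arrays. Intensities of different targets depend on their probes as well as on the RNA, so each gene is set against the random probes. Class medians, counts at a set intensity and the choice of the brightest genes do compare different targets, and carry that limit. Where 1 array lay under 100, the fold was computed against 100 and is written as at least that large.

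Of the 44 matched genes, 33 reached 100 on both arrays, 3 reached it on 1 array and 8 on neither. By class, this limit was reached on both by 16 of 19 pan-leukocyte genes, by 14 of 14 in the B and plasma cell class, by 0 of 5 T and NK cell genes and by 3 of 6 myeloid genes, beside 65.3% of all named genes. Their median intensities were 1186 on the TLC-S array and 992 on the control array for pan-leukocyte genes, 2051 and 1237 for B and plasma cell genes, 51.1 and 63.5 for T and NK cell genes, and 255 and 114 for myeloid genes. An intensity of 1000 on both arrays was reached by 8 pan-leukocyte and 8 B and plasma cell genes, against 13.7% of all targets and 21.1% of named genes.

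These counts depend on which targets have a name. Gene symbols come only with the 11292 targets in the authors' table, exactly those over the limit on both arrays, and 444 of these stayed unnamed. Of the 9426 predicted-record targets under that limit 95 were named, so that a gene read by a predicted record could be matched almost only when it was bright. Among genes named by a current RefSeq accession, a route that does not depend on the intensity, 43.6% of 9572 reached 100 on both arrays. By that route the members at 100 or more on both arrays were 13 of 16 pan-leukocyte, 7 of 7 B and plasma cell, 0 of 5 T and NK cell and 2 of 5 myeloid genes. The 10 members with no matched target were Itgb2, Cd79a, Cd22, Ms4a1, Pax5, Cd3e, Cd7, Elane, Csf3r and Fcer1g, whose levels were not analysed here. Since the members were picked with these intensities known, the shares describe the list and carry no test.

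**Figure D1:**
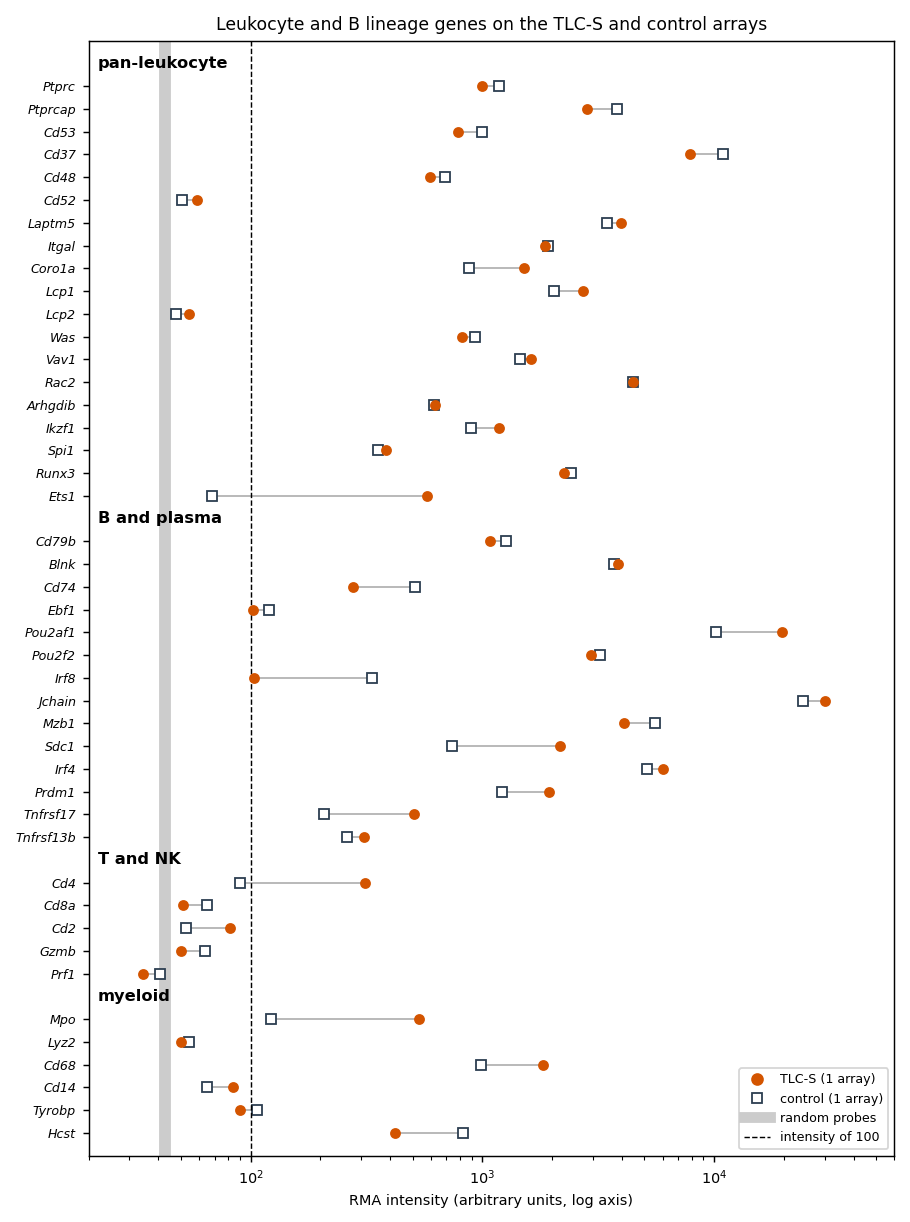
RMA intensity (arbitrary units, log axis) of the 44 matched genes by class, with the TLC-S array as filled circles and the control array as open squares. The grey band spans the random probes (40.5 and 44.7) and the dashed line marks 100; nearly all pan-leukocyte and all B and plasma cell genes lie right of it on both arrays, and the 5 T and NK cell genes lie left of it on at least 1.

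Promoters were read for the members because several of the factors in the list bind short DNA words, Pou2f2 with its partner Pou2af1 the octamer ATGCAAAT, Ebf1 the palindromic EBF word, and Spi1 and Ets1 the ETS core within GAGGAA. RefSeq promoters of build GRCr8, from 250 bases before to 50 after the start of a gene, were at hand for 35 members, with 36 sequences because Runx3 has 2. The ETS word stood on either strand in 21 of 36 (58.3%), against 27.6% of 33469 promoters of that length, with 7 of 12 in the pan-leukocyte class, 7 of 13 in the B and plasma cell class, 2 of 5 in the T and NK cell class and 5 of 6 in the myeloid class. The octamer stood in 1 of 36, that of Blnk, against 1.78% of all promoters, and the EBF word in 0 of 36, against 0.834%. Cd22, Cd79a, Cd3e and Csf3r, which had no matched target, are among the 35 members and each hold the ETS word. No 2 matches in a promoter overlapped. A match is a description of the letters and not a bound site.

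Shown are the promoter with the octamer (Blnk, chr1:249770484-249770783, minus strand), one with the ETS word on both sides of the start (Cd37, chr1:104860735-104861034, minus strand) and that of the plasma cell gene with the larger of the 2 ratios past 2-fold (Sdc1, chr6:37281791-37282090, plus strand), each 5′ to 3′ in the direction of the gene with the matched word in capitals. The promoter of Jchain (chr14:19822726-19823025, plus strand) holds none of the 3 words and is shown beside them because its target was bright on both arrays.
Blnk: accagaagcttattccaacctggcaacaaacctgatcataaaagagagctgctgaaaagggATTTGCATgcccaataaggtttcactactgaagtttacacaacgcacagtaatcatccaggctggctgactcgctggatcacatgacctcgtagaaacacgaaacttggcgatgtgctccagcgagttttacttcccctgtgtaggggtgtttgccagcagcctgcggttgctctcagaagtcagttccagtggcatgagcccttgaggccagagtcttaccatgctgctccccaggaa
Cd37: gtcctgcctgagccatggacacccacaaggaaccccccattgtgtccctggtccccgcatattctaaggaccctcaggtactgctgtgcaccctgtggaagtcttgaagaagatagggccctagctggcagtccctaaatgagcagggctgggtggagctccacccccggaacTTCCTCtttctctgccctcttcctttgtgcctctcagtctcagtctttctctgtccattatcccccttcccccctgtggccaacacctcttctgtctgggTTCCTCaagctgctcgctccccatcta
Sdc1: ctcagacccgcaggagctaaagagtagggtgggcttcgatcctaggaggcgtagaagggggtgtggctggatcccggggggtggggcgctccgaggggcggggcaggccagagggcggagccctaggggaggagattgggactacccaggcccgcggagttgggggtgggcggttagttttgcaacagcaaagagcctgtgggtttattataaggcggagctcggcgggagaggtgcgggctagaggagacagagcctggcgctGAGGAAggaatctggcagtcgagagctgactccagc
Jchain: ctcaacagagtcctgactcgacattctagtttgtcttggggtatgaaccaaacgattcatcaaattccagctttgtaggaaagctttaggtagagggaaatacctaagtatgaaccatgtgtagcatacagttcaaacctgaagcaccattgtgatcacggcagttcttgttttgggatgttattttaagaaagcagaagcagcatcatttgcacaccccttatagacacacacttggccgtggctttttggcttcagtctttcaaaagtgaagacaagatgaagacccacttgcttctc

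Among pan-leukocyte surface genes, Ptprc, which encodes the phosphatase CD45 of all nucleated blood cells, read 993 on the TLC-S array and 1175 on the control array, 24.5 and 26.3 times the random probes. Its partner Ptprcap read 2824 in TLC-S and 3799 in control. Both were slightly lower in TLC-S, at 1.18-fold and 1.34-fold, and both stood far above the random probes on either array. The tetraspanin Cd37, whose promoter above carries 2 ETS words, read 7840.2 in TLC-S and 10929 in control. Its relative Cd53 read 786 in TLC-S and 992 in control, and the SLAM-family ligand Cd48 597 and 689. All 3 were lower in TLC-S by less than 1.5-fold. Laptm5, a lysosomal membrane protein of blood cells, read 3954 in TLC-S and 3442 in control. Itgal, the alpha chain of the integrin LFA-1, read 1869 in TLC-S and 1921 in control. Cd52, a small glycopeptide of mature lymphocytes, was the exception in this group, with 58.6 in TLC-S and 50.5 in control, under 100 on both arrays.

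The cytoskeletal and signalling genes of blood cells were also bright, with 1 exception. Rac2, a GTPase of blood cells, read 4457 in TLC-S and 4454 in control. Its activator Vav1 read 1629.9 in TLC-S and 1454 in control, and Arhgdib, an inhibitor of such GTPases, 625 and 620.1. These 3 differed between the arrays by at most 1.12-fold. Coro1a, a coronin that binds actin, read 1511 in TLC-S and 878 in control, 1.72-fold higher in TLC-S, and the actin bundler Lcp1 read 2716 and 2044, 1.33-fold higher. Was, the actin regulator lost in Wiskott-Aldrich syndrome in humans, read 819 in TLC-S and 927 in control. Lcp2, the adaptor SLP-76 used by T cells, myeloid cells and platelets, lay near the random probes, at 54.1 in TLC-S and 47.8 in control.

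Of the 4 pan-leukocyte transcription factors, 3 were at 100 or more on both arrays. Ikzf1 (Ikaros), required for lymphoid development, read 1186 in TLC-S and 896 in control. Spi1 (PU.1), which directs myeloid and B cell fate, read 383 in TLC-S and 354 in control, and Runx3 2248 and 2421. These 3 differed by at most 1.32-fold. Ets1, a lymphoid ETS factor, read 575 in TLC-S and 67.9 in control, at least 5.75-fold higher in TLC-S, and was the only pan-leukocyte gene past 2-fold.

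In the B cell class, Cd79b, a signalling chain of the B cell receptor, read 1079.5 in TLC-S and 1263 in control. Blnk, the adaptor that couples that receptor to its effectors, read 3838 in TLC-S and 3702 in control. Neither differed by more than 1.17-fold between the arrays. Cd74, the invariant chain that escorts MHC class II molecules, read 276 in TLC-S and 513 in control, 1.86-fold lower in TLC-S.

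The B lineage factors spanned a wide range of signal. Pou2f2 (Oct-2), the lymphoid octamer-binding factor, read 2940.2 in TLC-S and 3226 in control, and its dimmer target read 2682 and 3269. It was the only member with 2 targets, and their log2 ratios were -0.13 and -0.29. Its coactivator Pou2af1 read 19696 in TLC-S and 10146 in control, 1.94-fold higher in TLC-S. Ebf1, a factor that commits progenitors to the B lineage, was just over the limit, at 102 in TLC-S and 119.7 in control. Irf8, a factor of B cells and of monocytes and dendritic cells, read 103 in TLC-S and 334 in control, 3.24-fold lower in TLC-S, with its TLC-S value next to the limit.

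All 7 plasma cell genes were at 100 or more on both arrays, beside 65.3% of all named genes. Only 2 of them, Mzb1 and Sdc1, were named by RefSeq accession, where 43.6% of all genes so named reached that limit. The others were matched by a route open only to targets over the limit, so they could not have fallen under it. Jchain, which joins the units of polymeric IgM and IgA, read 30108 in TLC-S and 24300.5 in control, 743 and 544 times the random probes. Mzb1, an endoplasmic reticulum protein that aids antibody assembly, read 4073 in TLC-S and 5570.4 in control. Both were far above background on either array, with Jchain 1.24-fold higher and Mzb1 1.37-fold lower in TLC-S. The factor Irf4 read 6019 in TLC-S and 5122 in control, and Prdm1 (Blimp-1), the repressor that extinguishes the B cell programme in plasma cells, 1946 and 1212, 1.60-fold higher. Sdc1 (CD138), a proteoglycan of plasma cells and of epithelia, read 2156 in TLC-S and 741 in control, 2.91-fold higher. Tnfrsf17 (BCMA), a survival receptor of plasma cells, read 506 in TLC-S and 207 in control, 2.44-fold higher. Its relative Tnfrsf13b (TACI) read 309 in TLC-S and 260.0 in control, 1.19-fold higher. The targets of Pou2af1 and Tnfrsf13b come from predicted records whose titles call them similar to those genes, and those of Jchain, Irf4, Prdm1 and Tnfrsf17 also come from predicted records. So do the targets of Ptprc, Was, Ikzf1 and Pou2f2 above and of Mpo below, which makes 11 members. All 11 were matched by the route open only to targets over the limit.

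The T and NK cell genes gave another picture. The coreceptor Cd8a read 51.1 in TLC-S and 65.1 in control, and the adhesion receptor Cd2 81.4 and 52.5. The granule protease Gzmb read 50.2 in TLC-S and 63.5 in control, and the pore-forming Prf1 34.4 and 40.8. These 4 were under 100 on both arrays, and Prf1 was under the random probes on both. Cd4, which in rats marks helper T cells and also macrophages, read 313 in TLC-S and 89.7 in control, at least 3.13-fold higher in TLC-S.

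The myeloid genes were split. Mpo, the peroxidase of neutrophil granules, read 531 in TLC-S and 122 in control, 4.35-fold higher in TLC-S, with its control value close to the limit and its target from a predicted record. Cd68, a lysosomal glycoprotein abundant in macrophages, read 1821 in TLC-S and 983 in control, 1.85-fold higher. In contrast, Lyz2, a lysozyme of macrophages and neutrophils, read 50.1 in TLC-S and 54.4 in control, and the endotoxin coreceptor Cd14 84.2 and 65.2, both under 100 on both arrays. Hcst (DAP10), a signalling adaptor of NK cell receptors, read 420.3 in TLC-S and 829 in control, 1.97-fold lower. Tyrobp (DAP12), a like adaptor, read 89.7 in TLC-S and 106 in control, on either side of the limit.

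Other genes of the same lineages, from lists written without regard to how they moved but with earlier results of these data known, were read the same way. Of 23 matched pan-leukocyte genes outside the members, 21 reached 100 on both arrays, among them Cybb, the catalytic subunit of the phagocyte oxidase, at 3655 in TLC-S and 4959 in control, and Nckap1l (Hem-1), an actin regulator, at 1751 and 1074. Of 43 B lineage genes, 28 did so, a share (65.1%) next to the 65.3% of all named genes. They included Xbp1, the plasma cell and secretory factor, at 8854 in TLC-S and 7644 in control. The kinase Syk, which docks on the B cell receptor, read 5301 in TLC-S and 3003 in control, and the factor Tcf3 (E2A) 2326 and 1171. The counts were 4 of 21 T and NK cell genes and 7 of 17 myeloid genes, both shares below that of all named genes. Cd6 and Cd28, receptors of T cells, were 2 of those 4, at 499.5 and 492 in TLC-S and 498 and 427 in control. By RefSeq accession alone the counts were 12 of 14 pan-leukocyte, 15 of 30 B lineage, 3 of 20 T and NK cell and 6 of 16 myeloid genes, beside 43.6% of all genes so named.

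Markers of the labelled tissue were set beside these levels. Of 25 matched acinar genes other than trypsinogens, 1 reached 100 on both arrays, namely Bhlha15 (Mist1), a factor of acinar cells and also of plasma cells, at 1056 in TLC-S and 1227 in control. The amylase gene Amy2a3 read 64.8 in TLC-S and 64.0 in control, the carboxypeptidase gene Cpa1 45.5 and 43.1, the elastase gene Cela1 34.8 and 47.4, and the acinar factor Ptf1a 49.3 and 26.5. These 4 defining acinar genes were under 100 on both arrays, while 3 of 4 trypsinogens were over it, of which Prss1 read 603 in TLC-S and 5337 in control, 8.85-fold lower in TLC-S. Of 16 epithelial genes, 7 reached 100 on both arrays. The adhesion protein Cdh1 (E-cadherin) was one of them, at 6755 in TLC-S and 5018 in control. Epcam read 76.3 in TLC-S and 42.9 in control, and the simple-epithelium keratin Krt8 39.7 and 55.9, both under 100 on both arrays, while Krt18 read 67.0 and 138. Of the endocrine list 1 of 12 genes was over the limit on both, and of the fibroblast and endothelial list 2 of 8. All these counts stand beside 65.3% of all named genes. By RefSeq accession alone the counts were 1 of 25 acinar, 2 of 3 trypsinogen and 5 of 14 epithelial genes. For the endocrine list it was 1 of 12 and for the fibroblast and endothelial list 1 of 7, beside 43.6% of all genes so named. What part other cells or another cell identity have in these levels was not tested.

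**Figure D2:**
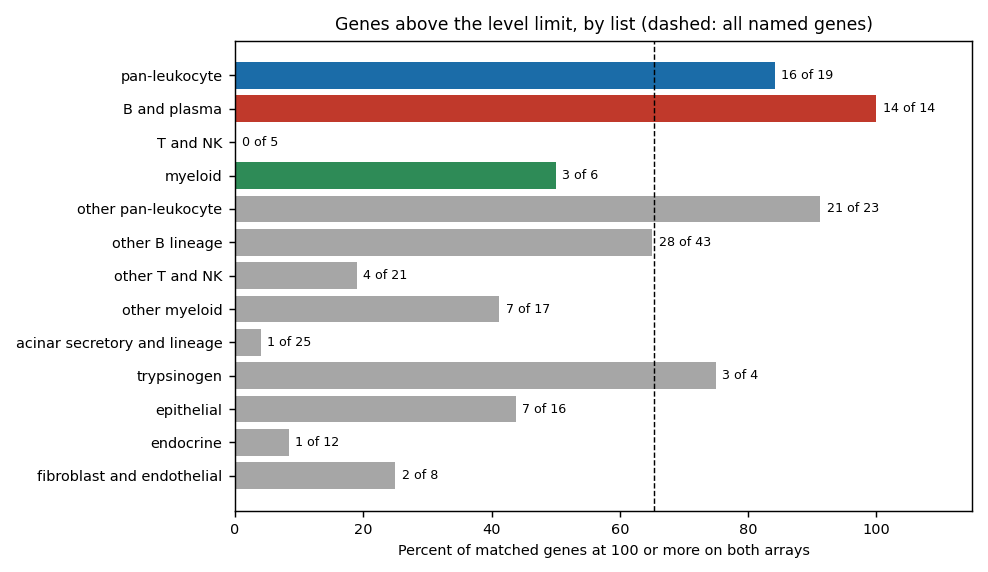
Percent of the matched genes of each list that reached an intensity of 100 on both arrays, with the members' 4 classes in colour, other lists in grey and the counts at the bars. The dashed line marks the 65.3% of all named genes. Of genes named by RefSeq accession, as all matched acinar and endocrine genes were, 43.6% passed. All 14 matched B and plasma cell members and 16 of 19 pan-leukocyte members passed, against 0 of 5 T and NK cell members and 1 of 25 acinar genes.

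The ratio between the arrays was then taken for every member. Past 2-fold, 5 of the 44 were higher in TLC-S (Ets1, Mpo, Cd4, Sdc1 and Tnfrsf17) and 1 was lower (Irf8), against 8.67% of all named genes higher and 5.38% lower. Both counts are near the background and single out nothing about the list as a whole. With both arrays at 100 or more, 3 of 33 members were higher and 1 lower, against 10.0% and 4.38% of the 10166 such genes. With intensities under 100 set to 100, the same 5 were higher and the same 1 lower, against 7.14% and 3.21% of all named genes. In the authors' deposited tables, Mpo, Sdc1 and Tnfrsf17 stood in the list of higher targets, with folds of 4.35, 2.91 and 2.44, and Irf8 in that of lower ones, with a fold of 3.24.

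Over the 44 genes the median log2 ratio of TLC-S over control was 0.03, with 24 above 0 and 20 below. Over all 15566 named genes it was 0.15, with 9235 above 0 and 6326 below. By class the median was 0.01 for pan-leukocyte genes, 0.14 for B and plasma cell genes, -0.25 for T and NK cell genes and 0.12 for myeloid genes. Subtracting a loess curve of ratio on signal moved the median of all named genes to 0.01 and that of the 44 to -0.16. The 4 classes, in the same order, then had medians of -0.20, -0.10, -0.17 and 0.22, so that those of all 44, of the pan-leukocyte class and of the B and plasma cell class changed sign with the scaling. Within the pan-leukocyte class, the 8 surface genes had a median of -0.22 as deposited and -0.54 after loess, and of the 7 at 100 or more on both arrays 6 were below 0 as deposited and 7 after loess. The 7 cytoskeletal and signalling genes had medians of 0.16 and -0.12, and the 4 transcription factors 0.26 and -0.05. Within the B and plasma cell class, the 4 matched B lineage factors had medians of -0.18 as deposited and -0.33 after loess, whereas the 7 plasma cell genes had 0.31 on both scalings. Of those 7, Mzb1 was below 0 as deposited, and Mzb1 and Tnfrsf13b after loess, with Jchain, Sdc1, Irf4, Prdm1 and Tnfrsf17 above 0 on both. The share of all named genes above 0 after loess was not computed. Counts in groups this small, from 1 array per group, describe the genes listed and carry no test.

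**Figure D3:**
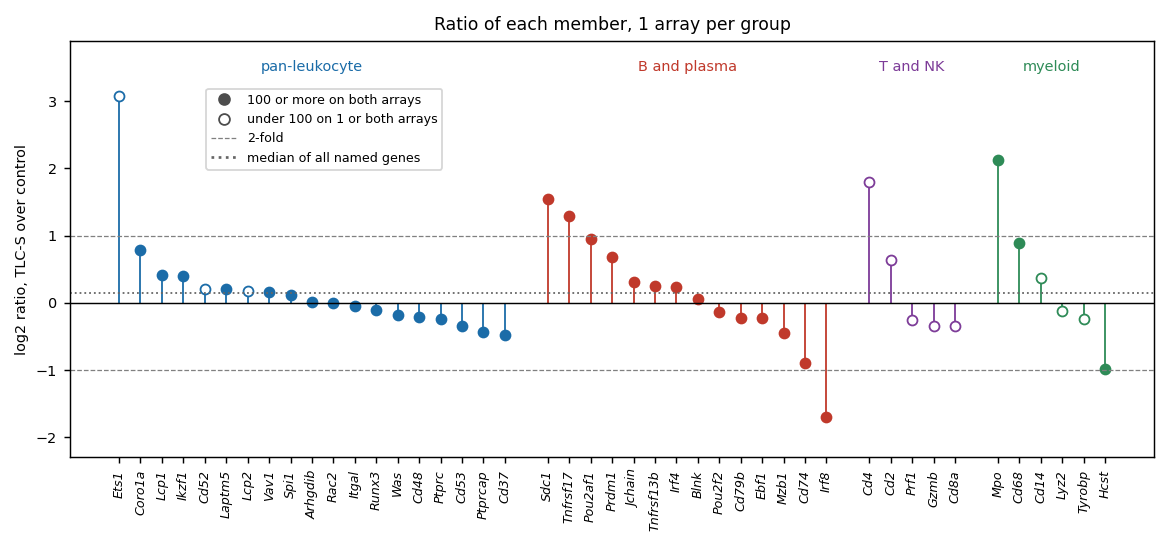
Log2 ratio of TLC-S over control for each matched member, by class and sorted within it, from 1 array per group. Filled points were at 100 or more on both arrays, open points under it on 1 or both, dashed lines mark 2-fold and the dotted line the median of all named genes (0.15); most members lie within 2-fold, and Ets1 and Mpo above it lie farthest out.

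The spread of ratios depended on signal, here the geometric mean of both intensities. Among named genes at a signal of 100 to 200, where Ets1, Cd4, Irf8 and Ebf1 lay, the SD of the log2 ratio was 0.79, and 12.2% were past 2-fold higher and 7.38% lower. At 200 to 400, with Mpo, Tnfrsf17, Tnfrsf13b, Cd74 and Spi1, the SD was 0.86, and the shares were 15.9% and 7.70%. Of the 6 members past 2-fold, 5 lay in these ranges. Sdc1 lay at 800 to 1600, where the SD was 0.69 and 9.37% were higher. Of the 13 members at 1600 or more, none was past 2-fold, where 6.13% of genes at 1600 to 3200 and 4.19% above 3200 were higher. These SDs include any true differences between the arrays. For genes with several targets at 100 or more, the SD of the log2 ratio between targets of one gene was 0.42 (588 genes).

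**Figure D4:**
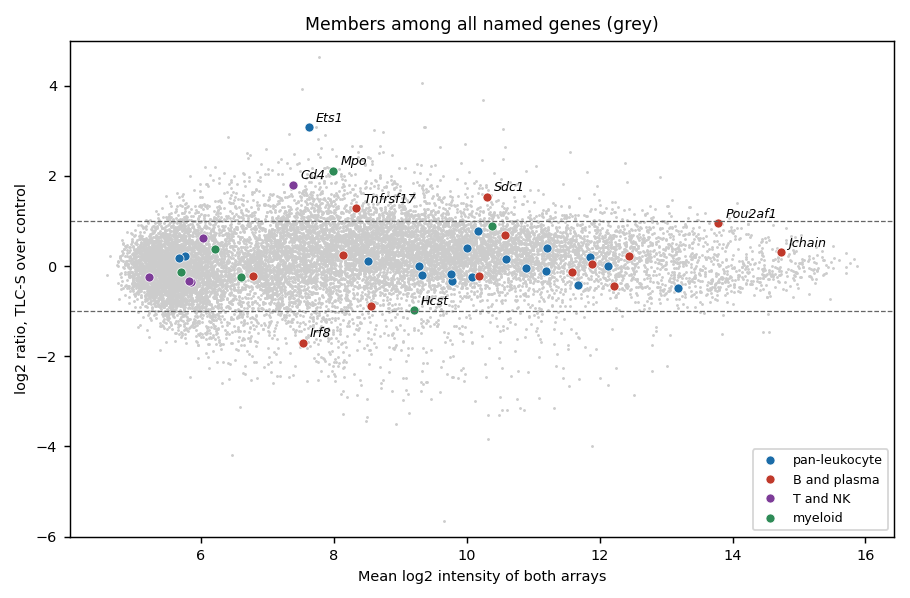
Log2 ratio of TLC-S over control (y axis) against the mean log2 intensity of both arrays (x axis) for all named genes (grey) and the 44 matched members (coloured by class), with dashed lines at 2-fold. The members past 2-fold, Ets1, Mpo, Cd4, Tnfrsf17, Sdc1 and Irf8, lie at low to middle signal, and those at the highest signal lie within 2-fold.

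Among the other genes of these lineages at 100 or more on both arrays, the largest ratios in the pan-leukocyte, B lineage and myeloid lists went both ways. In the pan-leukocyte list, 3 of 21 were past 2-fold higher and 2 lower. Gmfg, an actin regulator of blood cells, read 706 in TLC-S and 2915 in control, 4.13-fold lower in TLC-S, and the kinase Stk17b read 365 and 130.2, 2.80-fold higher. In the B lineage list, 3 of 28 were higher and 2 lower. Ltb, a lymphotoxin chain of lymphocytes, read 435 in TLC-S and 2153 in control, 4.95-fold lower, and the Src-family kinase Lyn read 399 and 122, 3.27-fold higher. In the myeloid list 1 of 7 was past 2-fold, Csf2rb, the shared chain of the receptors for interleukin 3, interleukin 5 and GM-CSF, at 729 in TLC-S and 298 in control, 2.44-fold higher, while the Fc receptor Fcgr3a read 1578 and 3010.2, 1.91-fold lower. These counts stand beside the 10.0% of such genes higher and 4.38% lower. Over all matched genes of a list, the median log2 ratio was 0.11 (pan-leukocyte), 0.48 (B lineage) and 0.07 (myeloid), against 0.15 for all named genes. Above 0, in the same order, were 13 of 23, 32 of 43 and 9 of 17, against 9235 of 15566 named genes.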

How the data were processed

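Per the labels' protocols, 1 sample of total RNA per group was labelled with Cy3 by a NimbleGen one-colour kit. The authors deposited an RMA-normalized intensity for each target, on a linear scale per the values; RMA is named without a version in the submitters' processing notes, and its background correction is not given in the sources used here. Of 26419 targets, 26368 carry 5 probes. For every target the series values were identical to those of the sample files, which the authors' table matched within 0.1%. The authors' up and down tables hold the absolute fold as a ratio, per the file headers. The number of array columns left unmapped was 0.

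Targets were named by RefSeq accession (9747) or by gene ID (4950) in a RefSeq gene table of assembly GRCr8, by the symbol of the file (1599) or its synonym (44), and 2 members by record title; 10077 stayed unnamed. A gene takes its target with the highest mean log2 intensity. Log2 ratios are of TLC-S over control. Precision is limited by the number of arrays, and no test was run. The members, the other lists and the naming rule were chosen with earlier results of these data known. The rule names all members and, in each other list, the 3 brightest genes and the 2 with the largest ratio among those at 100 or more on both arrays, with defining acinar and epithelial genes. Some of the genes this rule gives are counted and not reported here. The planned search for protein motifs was not run. Loess used a span of 0.3 and 3 robust iterations. Scripts, tested on simulated data, used statsmodels 0.14.6, pandas 2.3.3 and numpy 2.4.6 under Python 3.11.15. In the promoters, the EBF word was searched as the palindromic consensus with 2 free central bases.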

Additional observations from a re-analysis of the deposited data

How the results depend on the processing

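No paired analysis was possible because only 1 array represents TLC-S and 1 the control, which also leaves no replicate to omit. Naming by accession or without record titles, and setting intensities under 100 to 100, were chosen after seeing the data. Of the alternative values for counts and medians, 188 stayed within their tolerance (1.5 times a count, or the order-statistic interval of a median) and 25 moved. Many could hardly move, since the series values and the authors' table repeat the same intensities and only Pou2f2 has 2 targets. All medians by class stayed within their interval, which for the 5 T and NK cell and the 6 myeloid genes spans all their values. The myeloid median went from 0.12 to 0.89 with the authors' table and with the limit of 100 on both arrays. With median centring the medians of all 44 (-0.03) and of the pan-leukocyte class (-0.05) changed sign, as they did with loess. Naming turned signs too: the B and plasma cell median was -0.04 without record titles and -0.23 by accession alone, which also gave -0.12 for the myeloid class and -0.04 for all members. The 16 of 19 pan-leukocyte genes at 100 or more on both arrays became 16 with a limit of 200 and 18 with a limit of 50, and a limit of 50 gave 4 T and NK cell and 6 myeloid genes. A limit of 50 lies close to the random probes, and only 2476 of 15566 named genes had a mean signal under it. The share of all named genes at limits of 50 and 200 was not computed, so these counts single out nothing about the members. Accession naming alone gave 7 B and plasma cell genes, of 7 left. For members at least 2-fold higher, against 5 in all, the authors' table, the limit of 100 on both arrays and a 3-fold threshold each gave 3, and 1.5-fold gave 10. The authors' table holds exactly the targets at that limit, so these 2 settings are the same filter. By class, this filter gave 0 of the 16 pan-leukocyte genes left, and it left no T and NK cell gene to count. A threshold of 1.5-fold gave 2 pan-leukocyte, 4 B and plasma cell, 2 T and NK cell and 2 myeloid genes. For B and plasma cell genes, 3-fold gave 0 and loess 1. For members lower, against 1 in all, median centring gave 2, loess 3 and 1.5-fold 3; among them were 2 B and plasma cell genes with loess and with 1.5-fold, and 1 myeloid gene with centring, loess or 1.5-fold. Hcst crossed 2-fold with centring (-1.04) and loess (-1.30), Cd74 with loess (-1.21), and Tnfrsf17 left it with loess (0.98). The shares of all named genes past 1.5-fold or 3-fold, or past 2-fold with centring or loess, were not computed beside these counts. For single genes 295 alternative values stayed within the spread between targets of one gene and 2 moved, Ets1 to 2.41 and Cd4 to 1.38 with an offset of 50, which by construction shrinks ratios of dim targets. Many of the 295 were fixed in advance. The series values, the authors' table and, except for Pou2f2, the choice of target leave the ratio of a single gene unchanged.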

Other observations

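Several genes that carry a signal from the B cell receptor, chosen here after their values were seen, were over the limit of 100 on both arrays. The kinase Btk read 699 in TLC-S and 481 in control, and its substrate Plcg2, a phospholipase, 1221 and 803. The adaptor Bcl10 read 649 in TLC-S and 599 in control, and the paracaspase Malt1 221 and 187. The adaptor Pik3ap1 (BCAP) read 968 in TLC-S and 937 in control. Not all genes of the pathway passed, and the ratios went both ways. Prkcb, a protein kinase C between the receptor and the NF-kB branch, read 46.6 in TLC-S and 66.9 in control, under 100 on both arrays, with a log2 ratio of -0.52. The receptor chain Cd79b, over the limit on both, had -0.23, and Lyn, given with the B lineage list, 1.71.

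Genes of MHC class II, also chosen after their values were seen, were over the limit on both arrays, on 1 or on neither. RT1-Ba read 39.8 in TLC-S and 45.8 in control, RT1-Bb 49.1 and 45.9, RT1-Da 37.8 and 95.2, and the class II transactivator Ciita 52.9 and 96.5, all under 100 on both arrays. RT1-DMa, a peptide-loading chain, read 181 in TLC-S and 281 in control. RT1-Db1, the partner chain of RT1-Da, was over the limit on the TLC-S array alone, at 162 in TLC-S and 88.0 in control, at least 1.62-fold higher in TLC-S. RT1-DMb, likewise over it on that array alone, read 249.8 in TLC-S and 45.4 in control, at least 2.50-fold higher in TLC-S.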
